A study of Mus musculus with 30 samples.

Results

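The costimulatory and checkpoint genes described here are 10 listed mouse genes whose products set how a T cell answers antigen. They are Cd80, Cd86, Icosl, Cd274, Pdcd1lg2, Cd276, Cd70, Tnfsf4, Ctla4 and Cd83. They were chosen by name, with earlier results of these data known. All 10 were found among the 55011 genes counted in 16 libraries of mTEChi. They were also among the 35999 gene symbols of 5 libraries of B6 Aire-GFP+ cells. All 10 passed the filter on low counts in both tables. For Ctla4, the 3 annotated transcripts were also followed in the Aire-GFP+ cells.

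Medullary thymic epithelial cells (mTECs) show self antigens to developing T cells, and Aire is the transcription regulator that lets them express many genes of other tissues. The study asked how Aire picks its targets, and used the polyamine spermidine, the topoisomerase 1 inhibitor topotecan and deletion of Nfe2l2, the gene of the stress factor NRF2. Every library held RNA of 1000 sorted mTECs of C57BL/6J female mice aged 4 to 6 weeks, after depletion of CD45+ cells. The 8 mTEChi groups had 2 libraries each. WT and Aire-KO mice received PBS or spermidine by intraperitoneal injection, and other WT mice received DMSO or topotecan by the same route. The last 2 groups carried Foxn1-Cre, which acts in thymic epithelium, with Nfe2l2+/+ or Nfe2l2 fl/fl, called wt and flox below. The Aire-GFP+ groups, with no treatment, were 3 WT and 2 Aire-KO libraries, and the labels do not describe the reporter construct. Doses, treatment times, the Aire-KO allele, the mice behind each library and the antibodies of the mTEChi gate are not described in them either, so whether CD80 itself was used for sorting is unknown. The p values therefore measure the spread between these libraries, which may be partly technical.

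As background, a T cell needs a signal beside antigen. CD80 and CD86 on the presenting cell give it through CD28, while CTLA-4 binds the same ligands more tightly and dampens the response. PD-L1 (Cd274) and PD-L2 (Pdcd1lg2) inhibit through PD-1, ICOSL engages ICOS, and the TNF family ligands CD70 and OX40L (Tnfsf4) engage CD27 and OX40. In the thymic medulla, CD80 and CD86 are known for their part in the making of regulatory T cells, and CD80 marks mature mTECs.

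The promoters below are shown for the 4 genes on which the results turn most and whose upstream window held no annotated exon in the printed stretch. They come from RefSeq (GRCm38.p6), which gave a promoter for 6 of the 10 genes, and each is the plus strand, 5′ to 3′, ending at the base before the RefSeq start, except that of Icosl, which ends before an earlier annotated Icosl start. Capitals mark a motif match, or for Ctla4, which had no match, its longest run of alternating purines and pyrimidines. The Ctla4 stretch lies at chr1:60908775-60909024, that of Icosl at chr10:78069118-78069301, that of Cd80 at chr16:38458683-38458932 and that of Pdcd1lg2 at chr19:29410669-29410918.
Ctla4 promoter: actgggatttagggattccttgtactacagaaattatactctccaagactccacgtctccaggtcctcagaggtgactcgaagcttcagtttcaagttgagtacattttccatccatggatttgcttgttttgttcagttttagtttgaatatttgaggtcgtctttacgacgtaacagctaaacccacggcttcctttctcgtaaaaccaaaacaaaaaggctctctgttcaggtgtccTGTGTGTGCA
Icosl promoter: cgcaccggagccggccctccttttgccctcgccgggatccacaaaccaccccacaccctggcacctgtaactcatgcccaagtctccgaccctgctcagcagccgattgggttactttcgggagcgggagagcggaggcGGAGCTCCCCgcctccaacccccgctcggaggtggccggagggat
Cd80 promoter: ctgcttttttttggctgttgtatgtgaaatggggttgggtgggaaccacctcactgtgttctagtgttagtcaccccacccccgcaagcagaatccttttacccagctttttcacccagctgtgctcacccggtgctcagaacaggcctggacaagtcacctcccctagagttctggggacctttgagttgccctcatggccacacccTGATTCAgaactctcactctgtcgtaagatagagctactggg
Pdcd1lg2 promoter: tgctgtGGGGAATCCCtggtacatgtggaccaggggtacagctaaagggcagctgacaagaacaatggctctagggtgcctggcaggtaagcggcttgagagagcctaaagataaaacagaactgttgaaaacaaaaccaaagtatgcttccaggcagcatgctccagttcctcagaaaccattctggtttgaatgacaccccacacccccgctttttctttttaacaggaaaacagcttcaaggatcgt

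Motifs were searched on both strands in the 250 bases before the start of each of 32851 promoters. The NF-kB consensus was found in Icosl and Pdcd1lg2 and in 7.25% of all promoters, and the AP-1 motif TGANTCA in Cd80 and in 6.75%. No promoter of the 6 genes held a run of 5 CA units (1.43% of all), the CG repeat CGCGCG (9.17%) or the TATA box TATAAA (12.4%). Alternating purines and pyrimidines can adopt the Z form of DNA that the title of the series names. The Ctla4 run was 10 bases long, and 17.7% of all promoters held a run at least as long. A match describes letters only, and says nothing of a factor's binding.

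Ctla4 also needs its splicing shown, since an annotated transcript omits the exon that encodes the membrane-spanning segment of the receptor. That is exon 3 of Ctla4-201, 110 bases at chr1:60913219-60913328 on the plus strand (GENCODE M21, mm10), given here in capitals between the 20 transcript bases on either side.
Ctla4-201 exon 3: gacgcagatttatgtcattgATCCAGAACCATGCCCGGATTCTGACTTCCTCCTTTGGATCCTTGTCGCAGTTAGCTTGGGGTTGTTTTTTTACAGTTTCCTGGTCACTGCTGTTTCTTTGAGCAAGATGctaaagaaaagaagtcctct

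Library totals ran from 2.03 M to 5.72 M counts in mTEChi and from 6.62 M to 12.7 M in B6 Aire-GFP+ cells. All 12 listed mTEC markers were detected in every group. Summed without Aire, the other 11 read 5263 to 6012 CPM (counts per 1 M, after TMM scaling, as for all levels below unless said) in the 4 WT libraries with PBS or spermidine and 6762 to 7314 in the 4 Aire-KO libraries, and 4723 to 4967 in WT and 8568 to 9160 in Aire-KO Aire-GFP+ cells. Aire transcript was still read in the knockouts, at 1508 to 1774 CPM against 1603 to 1686 in WT Aire-GFP+ cells and at 4096 to 5075 against 1621 to 1814 in mTEChi, so gene counts do not check the deletion. The same holds for Nfe2l2, at 86.6 and 105 CPM in flox against 90.7 and 91.4 in wt. The summed cTEC markers, at 1298 to 1597 CPM in Aire-KO against 942 to 1179 in WT, and the dendritic cell markers, at 691 to 828 against 370 to 438, also stood higher in Aire-KO mTEChi. In Aire-GFP+ cells the cTEC sums were 2465 to 2468 against 801 to 969 and the dendritic sums, 203 to 333 against 188 to 230, overlapped. Macrophage (2209 to 2227 against 1070 to 1476), fibroblast (264 to 344 against 87.6 to 136) and endothelial sums (67.0 to 67.1 against 46.0 to 52.7) stood wholly higher there in Aire-KO, and B cell sums (142 to 160 against 175 to 210) wholly lower. In mTEChi with PBS the B cell sums stood wholly higher in Aire-KO, at 297 to 299 against 181 to 230 in WT. With spermidine they overlapped, at 264 to 435 against 252 to 292. The macrophage sums overlapped with PBS, at 1393 to 1935 against 1503 to 1576. With spermidine they stood wholly higher in Aire-KO, at 1805 to 2015 against 1385 to 1695. Endothelial sums did likewise, at 90.9 to 92.4 against 54.3 to 96.1 with PBS and 115 to 136 against 78.6 to 106 with spermidine. Over both treatments the fibroblast sums were 179 to 219 against 178 to 371. Of the 10 dendritic cell genes, 2 passed with PBS, where 10.3% of all genes did. Ccr7 (418 to 505 against 154 to 210) and Zbtb46 (87.1 to 104 against 41.2 to 63.1) stood higher in all Aire-KO libraries. Flt3 (18.3 to 43.7 against 13.5 to 21.0) and Itgax (10.8 to 32.1 against 6.31 to 12.7) reached higher but overlapped. Ptprc, the gene of CD45, read 24.9 to 65.8 against 35.4 to 70.1, and Sirpa 54.9 to 90.8 against 62.6 to 75.4. Xcr1 read 1.74 to 4.49 against 3.89 to 6.79 and Clec9a 0.345 to 6.31 against 0 to 4.37. Siglech read 0 to 5.18 against 0 to 4.60 and Cd209a 0 to 0.971 against 0.485 to 2.19. What other cells add to the values below was not tested beyond these levels.

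Levels between genes were compared per kilobase of exon. In the 6 control mTEChi libraries (WT with PBS, WT with DMSO, Nfe2l2 wt), Cd70 stood highest with a median of 77.0 CPM per kb (range 32.6 to 98.4). Cd83 followed at 43.9 (26.9 to 69.0), then Cd274 at 41.9 (28.0 to 56.3), Cd80 at 34.4 (26.4 to 39.3), Icosl at 33.8 (32.2 to 36.8) and Pdcd1lg2 at 32.6 (23.2 to 44.3). Each of these 6 genes overlapped its neighbour in the order. Cd86, at 17.9 (13 to 20.1), lay below the whole range of Pdcd1lg2. The last 3 genes, Cd276 at 5.40 (3.60 to 5.79), Ctla4 at 3.15 (1.32 to 8.12) and Tnfsf4 at 1.43 (0.152 to 6.44), overlapped each other and lay wholly below Cd86.

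In WT Aire-GFP+ cells, where the deposited TPM give levels per length, Icosl stood first at a median of 226 TPM (213 to 481). Cd70 followed at 132 TPM (92.3 to 134), above Cd83 at 73.8 (50.3 to 89.7). Cd86 at 48.3 and Cd80 at 44.6 overlapped, as did Cd274 at 36.7 and Pdcd1lg2 at 36.1. Ctla4 at 8.47, Cd276 at 6.24 and Tnfsf4 at 1.57 TPM closed the order, the same 3 genes as in mTEChi. The 2 tables were normalised separately, so the higher place of Icosl in Aire-GFP+ cells was not tested. The reporter construct is unknown and Icosl and Pfkl, which lie on either side of Aire, both read much higher in these cells than in mTEChi, so the level and place of Icosl here may not be those of cells without the reporter.

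**Figure D1:**
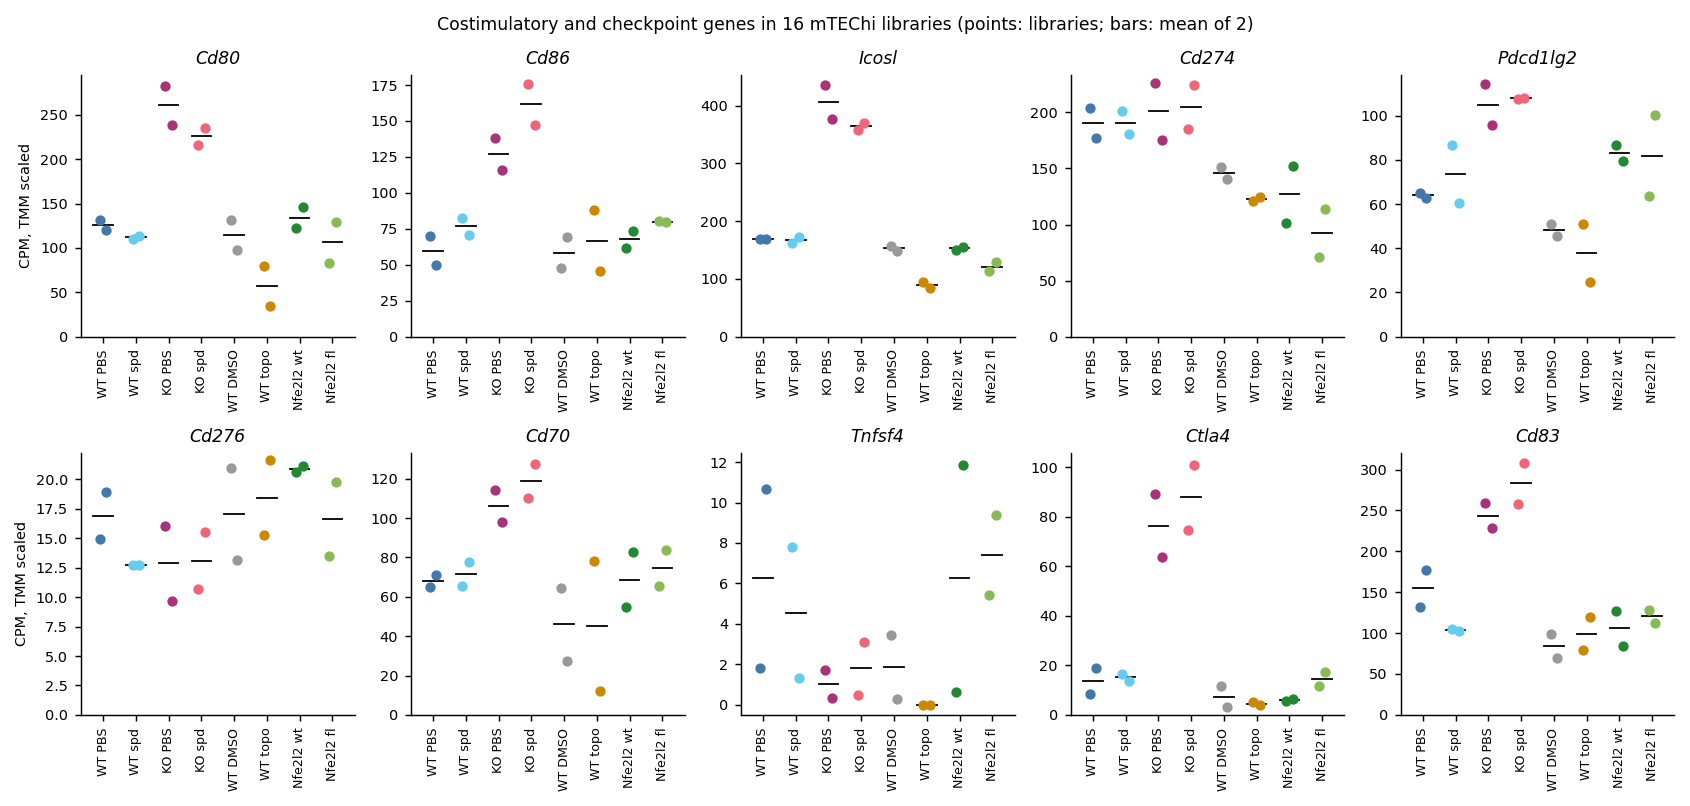
CPM after TMM scaling (y axis, linear) of the 10 genes in each of the 8 mTEChi groups (x axis; spd, spermidine; topo, topotecan; fl, flox); points are libraries and bars the mean of 2. The 4 Aire-KO libraries stand above all 12 others for Cd80, Cd86, Icosl, Cd70, Ctla4 and Cd83.

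What did loss of Aire do to these genes in mTEChi? With PBS, Cd80, Cd86, Icosl and Ctla4 rose, by 2.07, 2.11, 2.40 and 5.70-fold, and none of the 10 fell. With spermidine, in other libraries of the same study, the same 4 genes rose by 2.02, 2.1, 2.18 and 5.78-fold, and Cd83, a membrane protein of mature antigen-presenting cells, rose by 2.74-fold. So 4 of 10 genes passed edgeR's quasi-likelihood test (adjusted p under 0.05 over all genes) with PBS and 5 of 10 with spermidine, where 10.3% and 9.11% of all 18418 genes tested passed in either direction and 5.21% and 4.77% were higher and 5.08% and 4.34% lower. Of the genes passing, 960 of 1896 with PBS and 879 of 1678 with spermidine were higher, and 581 of 1968 and 558 of 1639 when scaled by library totals alone. The median log2 fold change of the 10 was 0.68 with PBS and 0.87 with spermidine, against -0.05 and -0.04 for all genes.

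Averaged over both treatments, 4 Aire-KO against 4 WT libraries, 6 of 10 genes rose and none fell, where 22.8% of all genes passed, 10.3% higher and 12.5% lower. Pdcd1lg2 and Cd83 joined Cd80, Cd86, Icosl and Ctla4. In 7 of 10 genes the 4 Aire-KO libraries lay wholly above the 4 WT libraries (12% of 20432 genes with a mean of at least 1 CPM), and in 6 they also lay above all 12 other mTEChi libraries (5.68%). No gene lay wholly below in either respect (12.6% and 3.4%). Within PBS 7 genes were wholly higher (24.5%) and Tnfsf4 alone was wholly lower (29.2%), and within spermidine 7 were higher (25.6%) and none lower (28.9%). In bulk RNA, more cells of a type and more RNA per cell cannot be told apart.

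Cd80 (chromosome 16, 38455561 to 38496335, plus strand, mm10) encodes the B7 ligand that CD28 and CTLA-4 share with CD86. It read 132 and 120 CPM in WT with PBS, 110 and 114 in WT with spermidine, 283 and 239 in Aire-KO with PBS and 216 and 236 in Aire-KO with spermidine. The lowest Aire-KO library thus stood above the highest WT library. The log2 fold change was 1.05 (SE 0.288, adjusted p = 0.0327) with PBS, 1.01 (SE 0.290, adjusted p = 0.0429) with spermidine and 1.03 (SE 0.204, adjusted p = 0.00242) for their mean. Within a treatment the call was lost whichever library was left out (adjusted p 0.0809 to 0.202), while the mean kept it in all 15 alternatives run.

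Cd86 (chromosome 16, 36603869 to 36666081, minus strand) encodes the second ligand of CD28 and lies on the same chromosome. Its levels were 70.3 and 49.5 CPM in WT with PBS, 82.9 and 71.0 in WT with spermidine, 138 and 116 in Aire-KO with PBS and 176 and 148 in Aire-KO with spermidine. The groups did not overlap here either. The log2 fold change was 1.08 (SE 0.273, adjusted p = 0.0221) with PBS, 1.07 (SE 0.269, adjusted p = 0.0232) with spermidine and 1.07 (SE 0.192, adjusted p = 0.00113) for the mean. With PBS 3 of 4 and with spermidine 4 of 4 single omissions lost the call, again not so for the mean.

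Icosl (chromosome 10, 78069302 to 78083913, plus strand), the ligand of ICOS, gave the smallest error of the 10. It read 168 and 170 CPM in WT with PBS, 161 and 173 in WT with spermidine, 436 and 377 in Aire-KO with PBS and 357 and 371 in Aire-KO with spermidine. The 8 control and treated libraries of other mice read 84.1 to 157, so no library outside the Aire-KO came near. The log2 fold change was 1.27 (SE 0.125, adjusted p = 5.12e-05) with PBS and 1.12 (SE 0.125, adjusted p = 0.000134) with spermidine, and each kept its call in all 11 alternatives.

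Among the ligands of PD-1, Pdcd1lg2 (chromosome 19, 29410919 to 29471161, plus strand) read 65.2 and 62.6 CPM in WT with PBS, 86.7 and 60.5 in WT with spermidine, 114 and 95.7 in Aire-KO with PBS and 107 and 108 in Aire-KO with spermidine. Aire-KO libraries lay above WT, but the difference passed only in the mean of both treatments (log2 0.63, SE 0.202, adjusted p = 0.0367). That call held in 7 of 15 alternatives. By treatment the log2 fold change was 0.71 (95% interval 0.10 to 1.32) and 0.55 (-0.06 to 1.15).

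Its chromosomal neighbour Cd274 (chromosome 19, 29367455 to 29388095, plus strand), the gene of PD-L1, did not separate the genotypes. It read 204 and 178 CPM in WT with PBS, 201 and 181 in WT with spermidine, 226 and 176 in Aire-KO with PBS and 186 and 225 in Aire-KO with spermidine. The mean log2 difference was 0.09 (95% interval -0.25 to 0.42, adjusted p = 0.736), an interval that ends short of a 2-fold change. Its exons overlap those of the antisense gene AC119228.1, and with libraries of no stated strand the reads of both cannot be told apart. Cd276 (chromosome 9, 58524298 to 58555437, minus strand; B7-H3), which overlaps the gene Gm10657, stayed at 9.67 to 16.1 CPM in Aire-KO and 12.7 to 18.9 in WT (mean log2 -0.18, 95% interval -0.76 to 0.40).

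Of the TNF family ligands, Cd70 (chromosome 17, 57145997 to 57149777, minus strand) read 65.2 and 70.8 CPM in WT with PBS, 65.5 and 77.6 in WT with spermidine, 114 and 98.1 in Aire-KO with PBS and 110 and 127 in Aire-KO with spermidine. The groups did not overlap, yet the test was not passed (mean log2 0.69, 95% interval -0.12 to 1.49, adjusted p = 0.211). The fit shares 1 estimate of spread over the 16 libraries, and Cd70 differed widely within other pairs, at 64.5 and 27.5 with DMSO and 78.2 and 12.1 with topotecan. In a fit of the PBS and spermidine libraries alone Cd70 passed with PBS (adjusted p = 0.0237), with spermidine (0.0145) and in the mean (0.00128), as the mean did without a low-count filter (0.000200) and with the replicate block (0.0183). Tnfsf4 (chromosome 1, 161395409 to 161418410, plus strand) had few counts, 1 to 6 in each Aire-KO and 3 to 22 in each WT library (mean log2 -1.97, 95% interval -4.25 to 0.31), and it did not pass. Counts of the 2 WT libraries of a group differed widely, at 5 and 22 with PBS and 22 and 3 with spermidine. Without a filter on low counts the mean passed (log2 -1.98, adjusted p = 0.0363).

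Ctla4 (chromosome 1, 60887000 to 60915832, plus strand), an inhibitory receptor best known on T cells, showed the largest fold change among the genes of the 10 that passed. Its levels were 8.37 and 18.9 CPM in WT with PBS, 16.6 and 13.6 in WT with spermidine, 89.4 and 63.6 in Aire-KO with PBS and 74.8 and 101 in Aire-KO with spermidine. The remaining 8 mTEChi libraries held 3.08 to 17.3 CPM. The log2 fold change was 2.51 (SE 0.458, adjusted p = 0.0031) with PBS and 2.53 (SE 0.451, adjusted p = 0.0031) with spermidine, and each kept its call in all 11 alternatives.

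Because Ctla4 is a T cell gene, T cell transcripts are given beside it. In the Aire-KO mTEChi libraries Foxp3, the defining factor of regulatory T cells, read 0 to 1.74 CPM against 0 to 4.01 in WT, and Cd3e 2.60 to 16.6 against 0.970 to 5.67. With PBS the 6 regulatory T cell markers summed to 72.2 to 87.7 CPM in Aire-KO against 84.8 to 93.2 in WT. The 14 T cell markers summed there to 87.4 to 91.6 against 77.6 to 117. With spermidine the regulatory T cell sums were 92.3 to 111 against 79.0 to 83.7. The T cell sums were 191 to 201 against 114 to 147 with spermidine. Both sums thus overlapped between genotypes with PBS and stood wholly higher in Aire-KO with spermidine. Over both treatments Tnfrsf18 read 9.33 to 21.9 CPM in Aire-KO against 8.25 to 10.95 in WT. Icos read 5.87 to 14.8 against 2.63 to 8.85 and Cd28 5.21 to 11.2 against 0.970 to 7.65. All of these reached higher in Aire-KO but overlapped. Ikzf2, at 5.18 to 7.25 against 6.37 to 21.9, and Lrrc32, at 0 to 6.31 against 2.91 to 12.3, reached lower but overlapped. The part of T cells in the Ctla4 value was not tested.

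Cd83 (chromosome 13, 43784775 to 43803132, plus strand) read 133 and 178 CPM in WT with PBS, 105 and 102 in WT with spermidine, 259 and 229 in Aire-KO with PBS and 258 and 309 in Aire-KO with spermidine. All Aire-KO libraries were higher. The log2 fold change passed with spermidine (1.45, SE 0.241, adjusted p = 0.00198) and in the mean (1.05, SE 0.169, adjusted p = 0.000477) but not with PBS (0.65, 95% interval 0.15 to 1.16, adjusted p = 0.0943). The difference between the treatments was itself tested for all 10 genes and none passed, nor did any of the 18418 genes (0.0%; 619 at unadjusted p under 0.05). For Cd83 it was 0.80 (95% interval 0.08 to 1.52, adjusted p = 1.00), and for Ctla4 and Icosl it was 0.02 (-1.37 to 1.41) and -0.14 (-0.52 to 0.23).

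**Figure D2:**
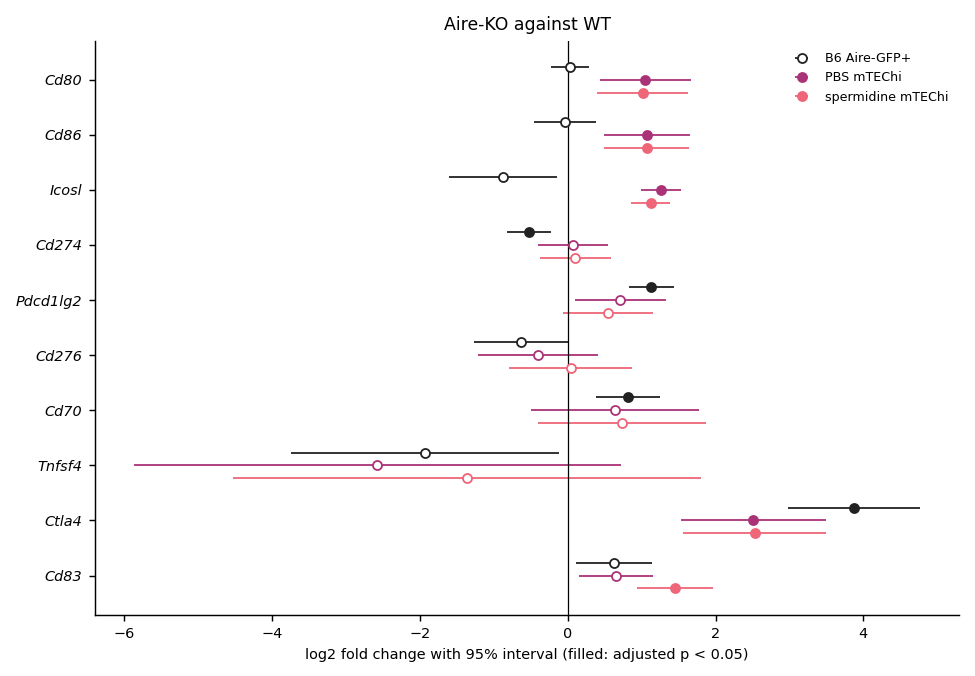
Log2 fold change of Aire-KO over WT (x axis) with its 95% interval for the 10 genes (y axis) in B6 Aire-GFP+ cells, PBS mTEChi and spermidine mTEChi; filled points passed at adjusted p under 0.05. Ctla4 lies to the right of 0 in all 3 comparisons, while Icosl lies at -0.87 in Aire-GFP+ cells and at 1.27 and 1.12 in mTEChi.

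The Aire-GFP+ cells carry a reporter whose construct the labels do not describe, and were compared in a table of their own. Ctla4, Pdcd1lg2 and Cd70 rose in Aire-KO cells, by 14.7, 2.19 and 1.76-fold, and Cd274 fell, to 1.44-fold lower. So 3 genes were higher and 1 lower of 10, in a comparison where 41.3% of all 17923 genes passed, 19.0% higher and 22.3% lower, and the median log2 fold change was -0.00 for the 10 and -0.12 for all genes. The share of the 10 that passed is thus that of the background. Without overlap between groups, 4 genes stood higher and 4 lower (30.4% and 33.8% of genes with a mean of at least 1 CPM). With library totals alone, 1591 of 7841 genes passing were higher, against 3410 of 7410 here.

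**Figure D3:**
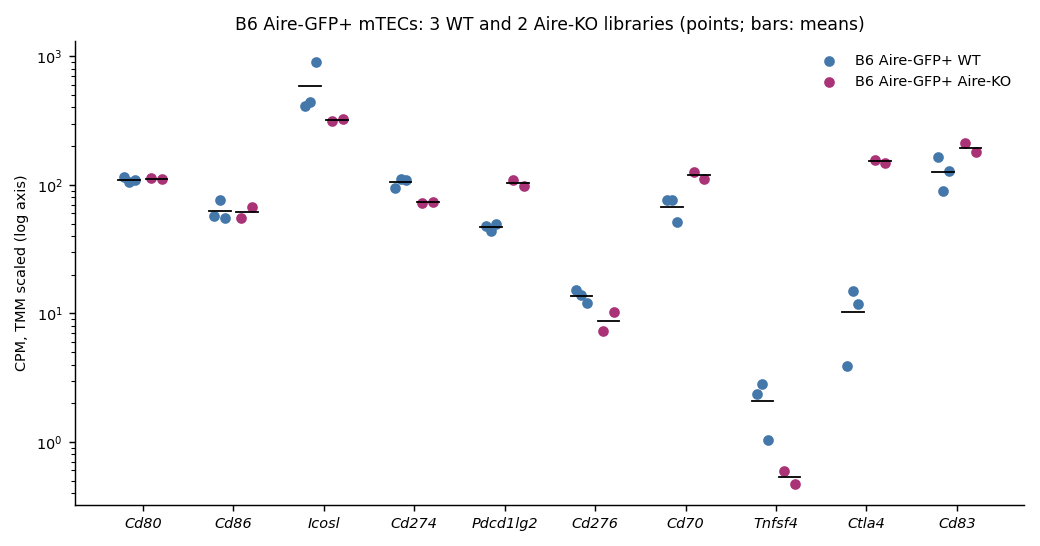
CPM after TMM scaling (y axis, log scale) of the 10 genes (x axis) in 3 WT and 2 Aire-KO libraries of B6 Aire-GFP+ cells; points are libraries and bars are means. Ctla4 stands at 149 and 157 CPM in Aire-KO against 3.87 to 14.8 in WT, and the genotypes overlap for Cd80 and Cd86.

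Cd80 read 114, 106 and 109 CPM in the WT and 113 and 111 in the Aire-KO libraries, and Cd86 57.5, 75.7 and 55.1 against 55.3 and 67.2. Both genes overlapped between genotypes. Their log2 differences were 0.03 (95% interval -0.23 to 0.29) and -0.04 (-0.45 to 0.38). In PBS mTEChi the intervals were 0.43 to 1.66 for Cd80 and 0.49 to 1.66 for Cd86. The tables were normalised separately, and the difference between them was not tested. The direction for Cd80 hangs on scaling: with library totals alone it was -0.37 (adjusted p = 0.027), and its deposited TPM were 43.4 to 45.0 in WT and 30.7 to 31.2 in Aire-KO. That scaling lowers the median of all genes by 0.40 on the log2 scale. For Cd86 the deposited TPM were also wholly lower in Aire-KO, at 25.7 to 30.4 against 42.5 to 56.1 in WT. Over 12 alternatives the log2 difference of Cd86 ranged from -0.44 to 0.11, and none passed.

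Icosl read 408, 440 and 906 CPM in WT and 314 and 324 in Aire-KO Aire-GFP+ cells, with WT replicate 3 far above the others. All Aire-KO values were lower, opposite to mTEChi. The log2 difference was -0.87 (95% interval -1.60 to -0.15) and did not pass after adjustment (adjusted p = 0.056). Without WT replicate 3 it was -0.42 and passed (adjusted p = 0.0253), and over 12 alternatives it ranged from -1.27 to -0.41, always below 0.

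Aire starts at -25.7 kb relative to the Icosl start, and its neighbours are given for that reason. In mTEChi with PBS, Pfkl, a glycolytic enzyme gene on the other side of Aire, rose with log2 1.31 (adjusted p = 0.000327), Aire with 1.5 (adjusted p = 3.41e-05) and Dnmt3l, whose exons overlap those of Aire, with 2.58 (adjusted p = 6.61e-05). In Aire-GFP+ cells Pfkl fell with Icosl's direction, by 1.22 on the log2 scale (adjusted p = 0.00767), Aire was at -0.01 (95% interval -0.23 to 0.21) and Dnmt3l rose with 1.62 (adjusted p = 0.000826). Pfkl read 984 to 1899 CPM in WT and 545 to 590 in Aire-KO Aire-GFP+ cells, but 118 to 134 and 287 to 337 in PBS mTEChi. Pfkl starts at -59.2 kb relative to Icosl, and its values and those of Icosl, which did not pass in Aire-GFP+ cells, were lower in Aire-KO there and higher in mTEChi, while Dnmt3l was higher in both. The difference between the tables was not tested.

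**Figure D4:**
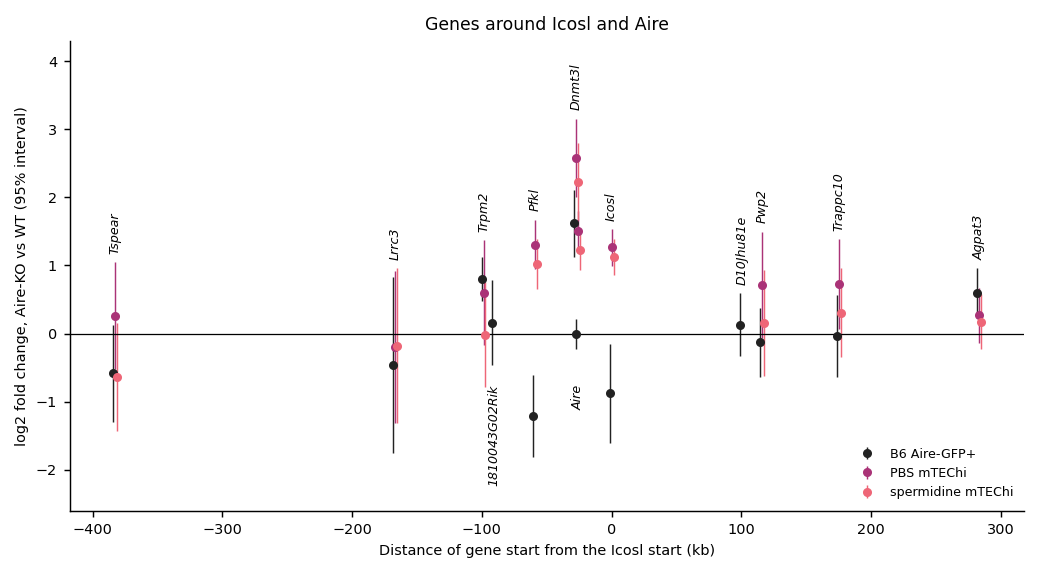
Log2 fold change of Aire-KO over WT with its 95% interval (y axis) for genes near Icosl by the distance of their start from that of Icosl (x axis, kb), in B6 Aire-GFP+ cells and in mTEChi with PBS or spermidine. Pfkl and Icosl lie below 0 in Aire-GFP+ cells (-1.22 and -0.87) and above 0 in mTEChi.

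Pdcd1lg2 read 47.7, 43.9 and 49.6 CPM in WT and 109 and 97.1 in Aire-KO Aire-GFP+ cells, a log2 rise of 1.13 (SE 0.132, adjusted p = 0.000477) that passed in all 12 alternatives. Its neighbour Cd274 went the other way. It read 94.4, 111 and 109 CPM in WT and 72.8 and 73.4 in Aire-KO (log2 -0.52, SE 0.129, adjusted p = 0.0134), and the call was lost without either Aire-KO library (adjusted p = 0.0730 without replicate 1 and 0.0732 without replicate 2). Within the PD-1 ligands, then, the inhibitory ligand genes moved in opposite directions in the same libraries.

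Cd70 rose from 76.6, 75.6 and 51.0 CPM in WT to 126 and 111 in Aire-KO Aire-GFP+ cells (log2 0.81, SE 0.187, adjusted p = 0.00999), a call lost without Aire-KO replicate 1 (adjusted p = 0.0631) and with library totals alone (log2 0.42, adjusted p = 0.110). Cd83 read 163, 88.9 and 128 against 211 and 179, not overlapping, and missed the threshold (log2 0.63, 95% interval 0.11 to 1.14, adjusted p = 0.0537). It passed in 5 of 12 alternatives, with DESeq2 (0.0282), limma-voom (0.0350), the replicate block (0.00642), no low-count filter (4.9e-05) or without WT replicate 1 (0.00875). Cd276 was lower, at 15.1, 13.8 and 12.1 against 7.26 and 10.3, and Tnfsf4 at 2.35, 2.82 and 1.04 against 0.595 and 0.473. Neither passed (log2 -0.63, interval -1.26 to 0.00, and -1.93, interval -3.74 to -0.12), but Cd276 did in 1 and Tnfsf4 in 2 of 12 alternatives.

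Ctla4 in Aire-GFP+ cells read 3.87, 14.8 and 11.8 CPM in WT and 157 and 149 in Aire-KO (log2 3.87, SE 0.390, adjusted p = 0.000255). All alternatives kept the call, with a log2 of 3.47 to 4.22. In the same Aire-KO libraries Ptprc read 0.852 to 2.02 CPM, Cd3e 0.473 to 2.02 and Foxp3 0 to 0.357, at or below their WT values of 5.64 to 6.43, 0.705 to 1.52 and 0 to 0.415 except for the upper value of Cd3e. Other genes of T cells were wholly higher in Aire-KO, namely Tnfrsf18 (5.11 to 9.40 against 3.32 to 4.72 CPM), Icos (5.00 to 5.30 against 2.38 to 3.78) and Cd28 (1.55 to 2.84 against 0.529 to 1.11). The 14 T cell markers summed to 38.6 to 58.0 CPM in Aire-KO and 70.4 to 90.1 in WT, and the 6 regulatory T cell markers to 38.3 to 39.4 and 42.7 to 50.9. Their part in the Ctla4 value was not tested.

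By transcript, nearly all Ctla4 reads were assigned to Ctla4-201, which contains the exon 3 printed above. Its deposited TPM were 2.27, 9.68 and 7.65 in WT and 71.9 and 67.0 in Aire-KO. The log2 fold change was 3.79 (SE 0.539, adjusted p = 0.0159), in a test where 12.8% of 38620 transcripts passed. Ctla4-202, which lacks exon 3, was listed at 0.450 TPM in 1 WT library and at 0 in the other 4, and was too low to test. Ctla4-203, a noncoding transcript that starts upstream of the coding exons, read 0.403, 0 and 0.824 TPM in WT and 2.19 and 2.57 in Aire-KO, and did not pass (log2 2.88, adjusted p = 0.227). The call for Ctla4-201 was lost without WT replicate 3 (adjusted p = 0.0580) or either Aire-KO library (0.0605 and 0.0645).

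None of the 10 genes passed with spermidine against PBS in WT cells, where 0 of 18418 genes passed (0.0%; 709 at unadjusted p under 0.05), or in Aire-KO cells, where 1 did (0.00543%; 759 at unadjusted p under 0.05), Cep85, named after its value was seen. In WT the intervals were narrow for Icosl (log2 -0.02, 95% interval -0.28 to 0.25) and Cd274 (-0.00, -0.47 to 0.47) and wide for Ctla4 (0.18, -0.85 to 1.22). In Aire-KO cells they were -0.16 (-0.42 to 0.10) for Icosl and 0.20 (-0.67 to 1.07) for Ctla4. In WT the only interval that left out 0 was that of Cd83, at 133 and 178 CPM with PBS and 105 and 102 with spermidine (log2 -0.58, -1.10 to -0.06, adjusted p = 0.999). Without overlap, 1 gene was higher and 3 lower in WT (16% and 16.6% of genes), and 1 higher and 2 lower in Aire-KO (17.3% and 18.3%).

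With topotecan 1 of 10 genes passed, where 0.652% of all genes did, 0.195% higher and 0.456% lower. The 10 genes had a median log2 of -0.30 against 0.01 for all genes, and 4 were wholly lower (19.3%) and 0 wholly higher (19.8%). Icosl fell from 157 and 149 CPM with DMSO to 95.1 and 84.1, 1.70-fold (log2 -0.77, SE 0.127, adjusted p = 0.0153). Aire itself fell by 0.88 on the log2 scale in the same comparison (adjusted p = 0.0125), from between 1179.9 and 1500.4 CPM to between 641 and 819. The Icosl call was lost without DMSO replicate 1 (adjusted p = 0.0877), without topotecan replicate 2 (0.0770) and in a fit of these 4 libraries alone (0.299). Cd80 read 132 and 97.6 CPM with DMSO and 79.2 and 34.1 with topotecan, and did not pass (log2 -1.02, 95% interval -1.66 to -0.38, adjusted p = 0.132). It passed without topotecan replicate 1 (log2 -1.76, adjusted p = 0.0135), with DESeq2 (0.0229), with the replicate block (0.0248) and without a low-count filter (1.87e-06), and its log2 was -0.54 (adjusted p = 0.363) without topotecan replicate 2. Replicate 2 held 1375 CPM of fibroblast markers against 165 in the other topotecan library and 369 and 731 with DMSO. Macrophage sums (1909 to 1923 against 1537 to 1635 CPM) and dendritic cell sums (465 to 599 against 360 to 452) stood wholly higher with topotecan. B cell sums (130 to 168 against 202 to 209) and regulatory T cell sums (85.5 to 113 against 117 to 141) stood wholly lower. The cTEC, T cell, endothelial and erythroid sums overlapped. The part of these differences, and of replicate 2, in the results was not tested. Tnfsf4 had no count with topotecan, which allows up to 0.979 and 0.942 CPM in these libraries, against 3.44 and 0.280 with DMSO.

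Deletion of Nfe2l2 in thymic epithelium passed for none of the 10 genes, nor for any of all 18418 genes (0.0%; 973 at unadjusted p under 0.05). Ctla4 read 5.53 and 6.28 CPM in wt and 11.8 and 17.3 in flox (log2 1.31, 95% interval 0.30 to 2.32, adjusted p = 0.829). Icosl stood at 149 and 156 against 113 and 129 (log2 -0.34, interval -0.60 to -0.07, adjusted p = 0.846). The groups did not overlap for either gene. In all, 2 genes were wholly higher (16.4%) and 2 wholly lower (17.4%). Summed cTEC markers stood wholly higher in flox, at 1348 to 1415 CPM against 892 to 1123 in wt. Dendritic cell sums (299 to 330 against 380 to 425) and macrophage sums (1174 to 1291 against 1446 to 1491) stood wholly lower. So did T cell sums (67.9 to 103 against 118 to 127) and erythroid sums (80.1 to 127 against 232 to 298). B cell, regulatory T cell, fibroblast and endothelial sums overlapped. The part of other cells in these values was not tested.

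**Figure D5:**
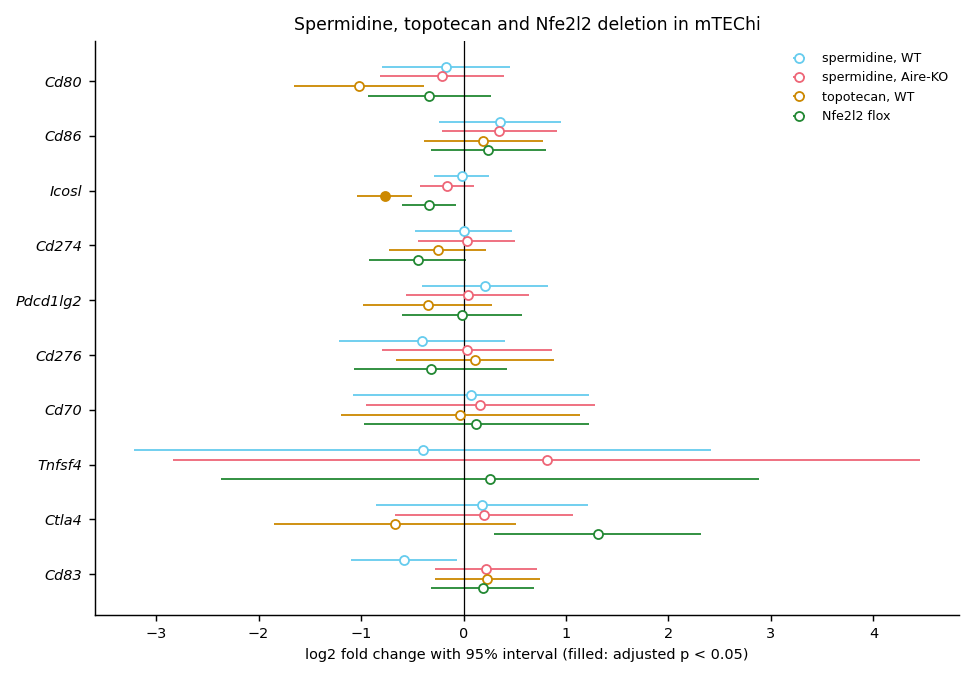
Log2 fold change (x axis) with its 95% interval of the 10 genes (y axis) for spermidine over PBS in WT and Aire-KO, topotecan over DMSO in WT and Nfe2l2 flox over wt, all in mTEChi; Tnfsf4 with topotecan is left out because it has no counts there. Only Icosl with topotecan (-0.77) is filled, that is at adjusted p under 0.05.

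The receptors that meet these ligands are mostly T cell genes and were low. Of 14 listed receptor genes 12 were tested in mTEChi, and in Aire-KO with PBS 2 rose and none fell (5.21% and 5.08% of all genes). Tnfrsf4, the gene of OX40, rose with log2 1.00 (adjusted p = 0.0323) and Lag3, an inhibitory receptor for MHC class II, with 1.09 (adjusted p = 0.0435). Tnfrsf4 rose again with spermidine (0.95, adjusted p = 0.0466). In Aire-GFP+ cells 11 were tested, 1 rose and 2 fell (19.0% and 22.3% of all genes), with Tnfrsf4 at 23.2 to 26.8 CPM in WT and 75.9 to 77.9 in Aire-KO (log2 1.65, adjusted p = 0.000145). Pdcd1 fell there from 0.283 to 7.05 CPM to at most 0.119, and Btla from 1.61 to 7.23 to at most 0.663, levels near the limit of counting.

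Of 26 other costimulatory and inhibitory ligand genes, 22 were tested in mTEChi. With PBS, 3 rose and 3 fell (10.3% of all genes passed), and with spermidine 4 rose and 3 fell (9.11%). Cd40, through which T cells signal to mTECs, rose with log2 0.91 and 0.69 and Icam1, an adhesion ligand, with 0.65 and 0.78. Btnl2, a butyrophilin-like gene, rose with 1.11 and 1.43, while Cd24a (-1.15 and -0.91) and Lgals9 (-0.58 and -0.68) fell with both. Vsir passed with PBS alone (-1.24), and Tnfsf9 (1.44), the gene of the 4-1BB ligand, and Nectin2 (-0.80) with spermidine alone.

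In Aire-GFP+ cells 24 of the 26 were tested, 5 rose and 7 fell, where 41.3% of all genes passed. Tnfsf9 (log2 1.44), Cd9 (0.97), Nectin3 (0.96) and Cd40 (0.64) rose. Ido1, a tryptophan-degrading enzyme that restrains T cells, fell by 4.06 on the log2 scale, from 31.5 to 47.8 CPM in WT to 1.89 to 2.86 in Aire-KO. Nectin2 (-1.33), Lgals9 (-0.78) and Tnfsf8 (-4.73) fell too. The median log2 was -0.20 over the 22 tested in PBS mTEChi and -0.15 over the 24 tested in Aire-GFP+ cells. None of the 22 ligand or 12 receptor genes tested in mTEChi passed with spermidine, topotecan or Nfe2l2 deletion.

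Likeness of pattern was measured over the 16 mTEChi libraries as Pearson's correlation of log2(CPM + 1) among 13067 genes of at least 5 CPM. The libraries share groups and the figures are a description. The 5 genes most like Ctla4 were Ufsp1 (0.954), Tbata (0.952), Mgrn1 (0.949), Prex1 (0.945) and Snx29 (0.944), and of the other 9 genes listed here Cd83 (0.899) and Icosl (0.895) came closest to it. Those most like Cd80 were Tbcd (0.957), Tnfsf9 (0.955), Inf2 (0.952), Cxcl10 (0.949) and Zp2 (0.946), and Icosl (0.915) was the closest listed gene. In B6 Aire-GFP+ cells, where Ctla4 was higher in Aire-KO, Tbata had a mean of 741 CPM in WT and 2228 in Aire-KO and Ufsp1 103 and 223. Mgrn1 had 78.9 and 85.5, Prex1 79.3 and 89.6 and Snx29 162 and 247. Cd80 overlapped between the genotypes there, while Tnfsf9 had 36.2 and 97.9, Cxcl10 336 and 670 and Zp2 95.3 and 260. Tbcd had 139 and 204 and Inf2 116 and 114.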

How the data were processed

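The 21 libraries analysed here are 16 of mTEChi and 5 of B6 Aire-GFP+ cells. The 9 NOD and F1 samples are not analysed here. Per the labels' protocols, polyadenylated RNA of sorted cells was amplified by Smart-seq2 and fragmented with Nextera XT, without strand or molecular identifiers named. For mTEChi the authors deposited raw counts per gene. For Aire-GFP+ cells the authors deposited each transcript's estimated counts, which need not be whole, with TPM and effective lengths, per the file headers. The submitters' processing notes name STAR, featureCounts, kallisto, TopHat2 2.1.1, SAMtools 1.3.1 and mm10.

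Of 118489 transcripts, 116816 matched GENCODE M21 and were summed to 35999 gene symbols and rounded; the rest held 0.541 to 0.578% of counts. Genes were tested with edgeR 4.0.16 (quasi-likelihood, TMM, filterByExpr, R 4.3.3) and Benjamini-Hochberg adjustment over all genes, at 0.05. One fit held all 16 mTEChi libraries, with a mean per group, and another the 5 Aire-GFP+ libraries. Intervals are 95% t intervals of the fit. Alternatives were other scalings, filters and tools (DESeq2 1.42.0, limma 3.58.1), fits within an experiment, the replicate number as a block and omission of each library. The steps were tested on simulated data. All 10 genes are named, then listed pathway genes that passed (up to 8 a comparison, by p), and the 5 genes most like Ctla4 and Cd80. Genes and lists were chosen with earlier results of these data known. Replicates differed by more than counting noise (chi-square per degree of freedom 3.05 to 19.7). Floors use 3 counts a library and cover counting error only.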

Additional observations from a re-analysis of the deposited data

Results flagged for a closer look

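Icosl is set apart because its 2 Aire-KO libraries of B6 Aire-GFP+ cells lay below all WT libraries, while all Aire-KO mTEChi libraries lay above WT. Its log2 difference was -0.87 in Aire-GFP+ cells and 1.27 and 1.12 in mTEChi with PBS and spermidine. The difference between the tables was not tested, since they were processed and normalised separately. The value in Aire-GFP+ cells did not itself pass (edgeR adjusted p = 0.056). Pfkl, on the other side of Aire, showed the same pattern, at -1.22 in Aire-GFP+ cells and 1.31 in mTEChi with PBS. The reporter construct is not described, and its part in these values was not tested.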

How the results depend on the processing

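Both calls and directions depended on the processing. Of 90 gene results, 20 passed, and in 248 recomputations of these 214 kept the call, 34 lost it and 0 changed sign. Among results that had not passed, 30 recomputations passed with the same sign and 80 changed sign without passing, and Cd80 in Aire-GFP+ cells reversed to -0.37 with library totals alone. That scaling moves the median of all genes by -0.40 in Aire-GFP+ cells and by -0.19 and -0.17 in mTEChi with PBS and spermidine. It gave 7 calls among the 10 genes in Aire-GFP+ cells in place of 4, 2 higher, and 2 and 3 in mTEChi with PBS and spermidine in place of 4 and 5. A fit of the PBS and spermidine libraries alone gave 7 with PBS. For topotecan the 1 call became 2 with DESeq2, 3 without a filter on low counts and 0 in a fit of its own 4 libraries. Leaving out single libraries gave 2 to 6 calls in Aire-GFP+ cells (2 without Aire-KO replicate 1), 2 to 3 with PBS, 3 to 3 with spermidine, 5 to 6 for their mean and 0 to 2 with topotecan, and a log2 of 3.39 to 4.18 for Ctla4-201 (adjusted p 0.0208 to 0.0645). The cause of these shifts was not tested, apart from the fewer samples of an omission.

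Whether same-numbered libraries were paired is not described in the labels. Their deviations from group means correlated at -0.00975 to 0.0498. These values cannot settle it, since with 2 libraries a group both numbers give the same value. With the number as a replicate block, the calls were 6 in Aire-GFP+ cells, 4 and 5 with PBS and spermidine, 7 for their mean, 2 with topotecan and 0 elsewhere, and Ctla4-201 had a log2 of 4.17 (adjusted p = 0.148), where 0 of 38620 transcripts passed. Precision is limited by 2 or 3 libraries a group, and for Tnfsf4, with 0 to 53 counts a library, by depth.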
